A study of Mus musculus with 4 samples.

Results

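The 9 genes described here carry the methionine and S-adenosylmethionine (SAM) cycle, and they were chosen by name among the 32285 genes listed in the deposited counts. The rule itself uses no measured value, but earlier results of these data were known when the genes were chosen. They are Mat2a, Mat2b, Gnmt, Ahcy, Mtr, Bhmt, Cbs, Amd1 and Mtap, and each symbol matched 1 Ensembl identifier. The counts come from scRNA-Seq of whole kidneys of C3H mice, 18 weeks old at harvest, in 4 libraries, 1 library per group. WT mice and SP mice, homozygous for a missense mutation in Slc5a2, the gene of the glucose cotransporter SGLT2, were males fed either a normal diet (ND) or a high-fat diet (HFD, 60% of calories from fat) from 10 weeks of age for 8 weeks, giving the groups WT-ND and WT-HFD, and SP-ND and SP-HFD, an order kept wherever 4 values are given together. The labels name the SP libraries MT, and they do not state how many mice went into a library. With 1 library per group no test of diet or genotype was possible, so that every interval below covers counting error only, and the words higher and lower describe libraries. The Slc5a2 mutation is missense, so that its mRNA level does not check the labels; in proximal tubule-like cells Slc5a2 was measured at 325.2, 261.6, 57.89 and 98.45 CPM (UMIs of the gene divided by all UMIs of the class, scaled as counts per 1e+06) in the 4 libraries.

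In the cycle, methionine adenosyltransferase joins methionine to ATP and makes SAM, the donor of methyl groups for DNA, RNA, proteins, creatine and phospholipids. Each transfer leaves S-adenosylhomocysteine, which is split into adenosine and homocysteine. Homocysteine is then methylated back to methionine, with folate or betaine as the donor, or drawn off toward cysteine, and a further branch decarboxylates SAM for polyamines. The kidney is known to clear homocysteine, and its proximal tubule takes up and metabolizes amino acids.

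The members fall into 4 roles. Mat2a encodes the catalytic subunit of the methionine adenosyltransferase found outside the liver, and Mat2b its regulatory subunit. Gnmt encodes glycine N-methyltransferase, which spends SAM on glycine, and Ahcy the hydrolase of S-adenosylhomocysteine. Mtr encodes methionine synthase, Bhmt betaine-homocysteine methyltransferase, and Cbs cystathionine beta-synthase, the first enzyme of transsulfuration. Amd1 encodes SAM decarboxylase, and Mtap the phosphorylase that returns the methylthio group of polyamine synthesis to the salvage of methionine. In the GENCODE M21 annotation of GRCm38, all are protein-coding: Mat2a lies on chromosome 6 (72432799 to 72439558), Bhmt and Mtr both on chromosome 13 (93616675 to 93637961 and 12182712 to 12258113), and Cbs on chromosome 17 (31608894 to 31637238).

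The promoter windows of the 3 members that the results below turn on are shown because they differed in their diet or cell class pattern. Each is the stretch of 250 bases before the RefSeq start on GRCm38.p6, written 5′ to 3′ on the minus strand, on which all 3 genes lie, with matches to 5 short motifs in capitals. The motifs, searched on both strands, were the GC box (GGGCGG), the CCAAT box (CCAAT), the E-box (CACGTG), the TATA box (TATAAA) and a half-site of HNF1 (GTTAAT), and no overlap between different motifs occurred in these windows.
Mat2a, chr6:72439557-72439806: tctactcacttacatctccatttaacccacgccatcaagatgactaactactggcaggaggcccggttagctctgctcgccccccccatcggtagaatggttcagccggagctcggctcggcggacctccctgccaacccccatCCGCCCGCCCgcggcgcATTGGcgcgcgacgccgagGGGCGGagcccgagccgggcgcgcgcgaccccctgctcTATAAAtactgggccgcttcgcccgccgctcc
Bhmt, chr13:93637759-93638008: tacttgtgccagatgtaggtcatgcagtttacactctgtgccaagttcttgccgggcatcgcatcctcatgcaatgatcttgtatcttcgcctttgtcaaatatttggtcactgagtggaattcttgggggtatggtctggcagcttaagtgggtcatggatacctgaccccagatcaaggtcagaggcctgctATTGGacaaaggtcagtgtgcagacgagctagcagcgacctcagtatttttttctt
Mtr, chr13:12258114-12258363: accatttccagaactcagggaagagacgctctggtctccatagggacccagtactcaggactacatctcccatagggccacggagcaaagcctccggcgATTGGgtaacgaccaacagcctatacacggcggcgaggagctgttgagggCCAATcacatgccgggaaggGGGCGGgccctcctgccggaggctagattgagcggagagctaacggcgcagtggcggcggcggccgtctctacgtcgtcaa
The Mat2a window held 3 GC box matches, 1 CCAAT box match and a TATA box match that began 32 bases before the start. The Mtr window held 1 GC box and 2 CCAAT box matches, and the Bhmt window 1 CCAAT box match. In GENCODE M21 the Bhmt gene reaches 93637961, beyond its RefSeq start. Part of the Bhmt window, with its CCAAT box match, thus lies inside the gene as GENCODE places it. All 9 members were found in the promoter table. Of their windows, 6 held a GC box, 8 a CCAAT box, 1 an E-box, 1 a TATA box and 0 the HNF1 half-site. Among 32851 promoter windows of the same length, 32.7% held the GC box, 33.8% the CCAAT box, 6.02% the E-box, 12.4% the TATA box and 6.43% the HNF1 half-site. These matches are letters in a window and were not linked to binding.

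The libraries held between 90728590 and 115117649 UMIs over 13229 to 16385 barcodes. From 32.7% to 49.8% of the barcodes of a library were at or above 50% mitochondrial UMIs, with SP-ND highest, and 32280 cells were kept in all. The paper states that 10000 cells were loaded per group, fewer than the barcodes of each library. Kept barcodes, called cells here, may thus not all be intact cells, which was not tested. Library pairs shared 54 to 77 barcodes, of which 10 to 34 were kept in both. Kept cells were assigned to 15 classes with at least 50 cells in 3 or more libraries, each called by markers, and every marker of every class was higher in its own class than in the other cells. The same markers named the classes, so that this order does not check the names. A further 2094, 1671, 783 and 824 cells, or 21.1%, 18.7%, 12.3% and 11.7% of the kept cells, lay in clusters that the markers did not name, and the orders of classes below leave them out. WT-HFD stood apart: 1 cluster of 996 cells, which is called here the PT-HFD candidate and is described last, had 976 of its cells in that library. Free RNA was gauged by 8 proximal tubule markers, whose summed CPM in immune cells was 13.8%, 6.99%, 6.31% and 2.90% of that in proximal tubule-like cells in the 4 libraries.

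The classes divided the members into 3 patterns. Gnmt, Ahcy, Bhmt and Cbs were highest, as the mean of the libraries, in proximal tubule-like cells, so that 4 of the 9 members were led by that class, which led 8.57% of 23427 genes with a UMI in a class. Mtr was highest in intercalated cells. Mat2a, Mat2b, Amd1 and Mtap were found in all classes, with their highest means in podocyte-like, intercalated, T or NK and thin limb-like cells. The map of mean CPM by class shows these patterns side by side.

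**Figure D1:**
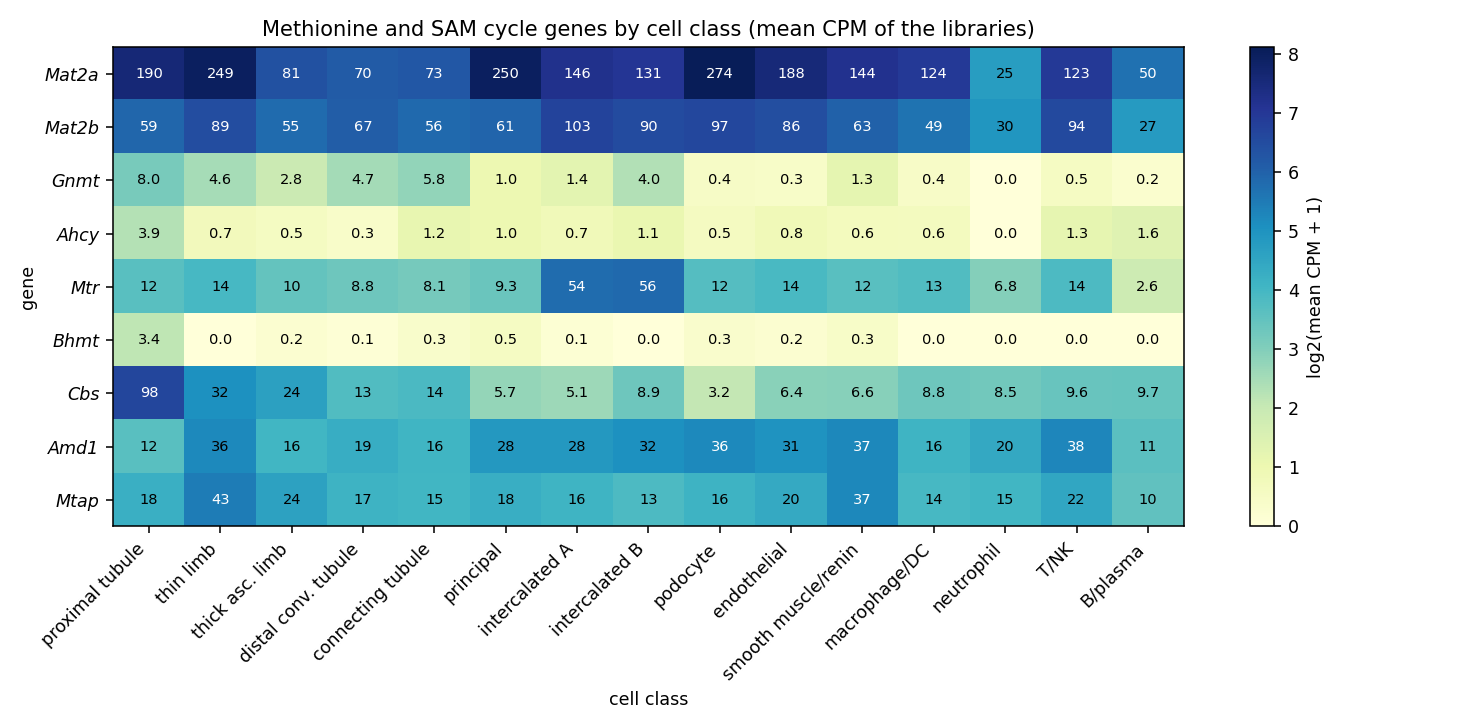
Mean CPM over the libraries (number in each cell, color on a log2(CPM + 1) scale) of the 9 members in rows and 15 cell classes in columns. Cbs and Bhmt are concentrated in the proximal tubule column and Mtr in the 2 intercalated columns, while Mat2a is above 25 CPM in every class.

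The genes of SAM synthesis, Mat2a and Mat2b, were counted in every class. Mat2a had its highest mean in podocyte-like cells (274.2 CPM, 211.4 to 322.5 over the 4 libraries), followed by principal cell-like cells (mean 250.3, 121.0 to 408.0) and thin limb-like cells (mean 249.4, 169.7 to 400.7). Proximal tubule-like cells followed, at 170.9 CPM on ND and 213.5 on HFD in WT, and 180.0 on ND and 195.7 on HFD in SP, and then endothelial cells (166.0 to 213.9). Each neighbouring pair in this order overlapped in range down to T or NK cells (91.21 to 150.8). The first gap lay below them: thick ascending limb-like cells stayed within 74.41 to 90.91 CPM. B or plasma cells (37.37 to 60.16) and neutrophils (0 to 41.06, from 0 to 4 UMIs of Mat2a a library) were lowest. Proximal tubule-like cells held the largest share of the Mat2a UMIs of the kept cells in each library, 51.2% on ND and 31.7% on HFD in WT, and 39.5% on ND and 22.6% on HFD in SP. Of the kept cells, this class made up 23.5% and 14.1% in WT and 16.1% and 9.53% in SP, in the same diet order. The shares of Mat2a UMIs thus depend on how many such cells were kept and on their depth, as well as on the Mat2a level.

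Mat1a, which encodes the catalytic subunit of the liver form, was at 0 or 1 UMI among the kept cells of each library, against 6608 to 10935 UMIs of Mat2a. No 25-base word of the Mat2a transcript occurred in Mat1a transcripts, so that shared reads do not enter this count. Mat2b, the regulatory partner, varied less between classes. It was highest in type A intercalated cells (mean 102.7 CPM, 92.54 to 120.4) and podocyte-like cells (mean 96.57, 85.08 to 109.1), and stood at 54.19 to 63.05 CPM in proximal tubule-like cells. Its levels overlapped from neighbour to neighbour except between endothelial cells (79.68 to 91.89) and distal convoluted tubule-like cells (61.06 to 74.79).

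Principal cell-like cells were named by markers of the collecting duct cells that carry the aquaporin-2 water channel. Mat2a in this class had the largest diet ratio of Mat2a among the classes. It was measured at 122.3 CPM (95% interval 109.9 to 135.7) on ND and 408.0 (384.2 to 432.9) on HFD in WT, and 121.0 (109.6 to 133.3) on ND and 349.9 (329.3 to 371.4) on HFD in SP. The ND libraries lay together and the HFD libraries lay together, far above them. On the log2 scale HFD over ND came to 1.74 for WT (1.56 to 1.92) and 1.53 for SP (1.37 to 1.70), a pair of comparisons that share no library. In the same cells 8.51% of 8351 genes with at least 10 CPM in 1 of the libraries were at least 1.5-fold higher in WT-HFD than in WT-ND, and 6.21% of 8249 genes in SP-HFD than in SP-ND. Between genotypes the ratio was -0.02 on ND and -0.22 on HFD.

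The difference was present in each of the clusters that make up this class. The larger one, Kcne1-led (1597 cells), had a mean log2 marker ratio of 3.259 for principal cells and 3.21 for the next class. At resolution 1.0, Kcne1 was a top gene of a principal cluster (854 cells) and of one named connecting tubule (733 cells). The class may thus hold connecting tubule cells, and their part in the difference was not tested. In the Kcne1-led cluster Mat2a was at 94.1 CPM on ND and 335.5 on HFD in WT, and 96.81 on ND and 296.7 on HFD in SP. In the Aqp4-led cluster, whose Aqp2 level was higher, it was at 221.9, 534.9, 201.6 and 475.2 CPM in the same order. The 2 clusters thus differed from each other in level, and in each both HFD libraries exceeded both ND libraries. With every cell cut down at random to 1000 UMIs, the share of principal cell-like cells with a Mat2a UMI was, in WT, 9.61% (7.15% to 12.6%) on ND and 27.8% (23.5% to 32.4%) on HFD. In SP it was 14.7% (11.5% to 18.4%) on ND and 30.6% (26.7% to 34.7%) on HFD. Cells with fewer UMIs, 18 to 56 a library, were left out of this. The unthinned shares were 36.9%, 64.1%, 49.3% and 65.0%, at median depths of 4425, 5000, 7269.5 and 4700 UMIs.

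Other values moved with diet in these cells. Aqp2 was at 4255 CPM on ND and 6997 on HFD in WT, and 5613 on ND and 6704 on HFD in SP, and the share of mitochondrial UMIs stayed between 22.6% and 23.5%. The stress-response genes Fos and Hspa1a, chosen after their values were seen, were at 849.9 to 1175 CPM and 196.6 to 306.6 CPM, and Hspa1a was higher in each HFD library than in the ND library of its genotype. In the Aqp4-led cluster this order was turned, with Hspa1a at 428.1 CPM on ND and 274.6 on HFD in WT, and 361.4 on ND and 282.3 on HFD in SP, while Mat2a was higher on HFD there. Proximal tubule markers, summed, were highest in WT-ND (532.4 CPM) and between 215.1 and 286.1 CPM in the other libraries. The part of these values in the Mat2a difference was not tested. Mat2b showed no such pattern, at 60.27, 54.77, 65.64 and 61.73 CPM in the 4 libraries.

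**Figure D2:**
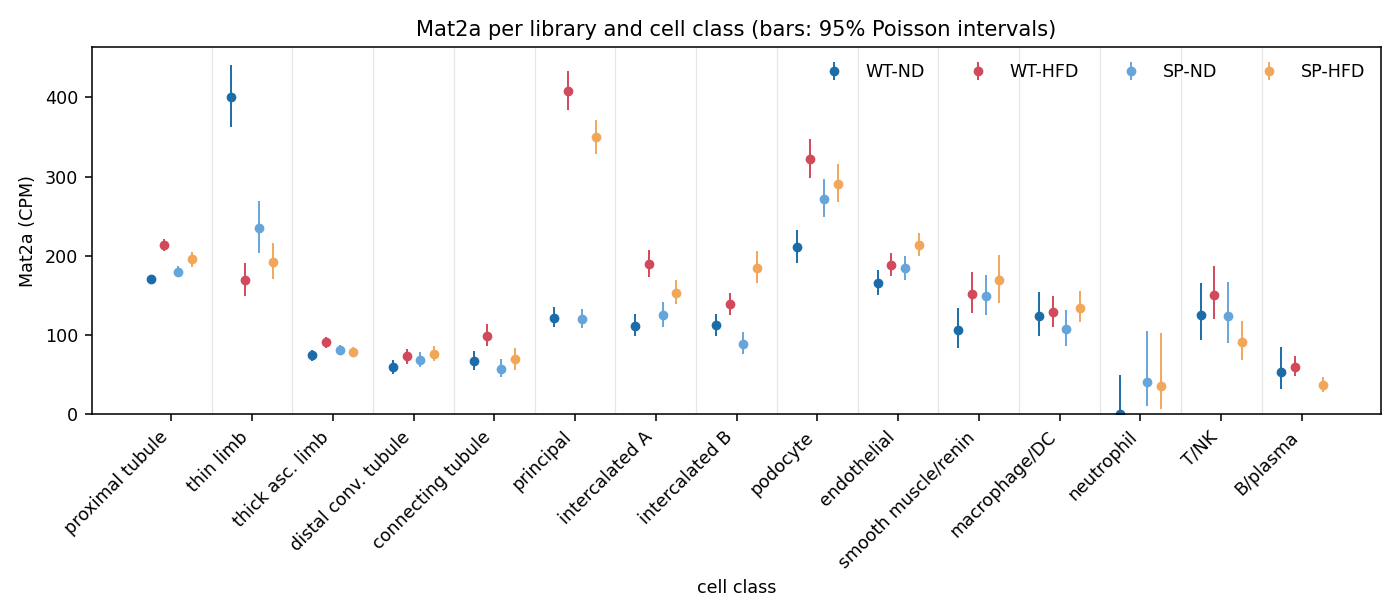
Mat2a level (CPM, y axis) in each cell class (x axis), 1 point per library with its 95% Poisson interval. In principal cells the WT-HFD and SP-HFD points (408.0 and 349.9) stand above the WT-ND and SP-ND points (122.3 and 121.0), whereas in thin limb cells WT-ND (400.7) is highest.

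Outside principal cells most diet ratios of Mat2a were above 0. Of the 13 other classes measured in each genotype, 12 were above 0 in WT (9 beyond counting error) and 9 in SP (4). At least 1.5-fold higher were 2 of them in WT and 1 in SP, and lower 1 and 0. In type A intercalated cells Mat2a was at 112.1 CPM on ND and 190.4 on HFD in WT, and 125.6 on ND and 153.9 on HFD in SP, and past 1.5-fold in WT, where 4.85% of genes in that class were as much higher. In type B intercalated cells it was at 112.3, 138.9, 89.36 and 185.2 CPM, and past 1.5-fold in SP, where 12.9% of genes were as much higher. Podocyte-like cells had 211.4, 322.5, 272.2 and 290.9 CPM, with 4.92% of genes at least 1.5-fold higher in WT-HFD. Thin limb-like cells had 400.7, 169.7, 234.7 and 192.6 CPM, lower on HFD in WT, as were 15.6% of genes there. Only principal cell-like cells passed 1.5-fold in both genotypes.

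The steps that spend SAM and hydrolyse its product were sparsely counted. Gnmt was highest in proximal tubule-like cells, at 7.79 CPM on ND and 7.403 on HFD in WT, and 10.41 on ND and 6.213 on HFD in SP, a range that overlapped that of connecting tubule-like cells (3.325 to 9.849). It was at 0 UMIs in the neutrophils of the 3 libraries with enough cells. Ahcy was at 3.652 to 4.421 CPM in proximal tubule-like cells and at 3.2 CPM or less in each library of the other named classes. Of the 25-base words of its longest coding transcript, 77.3% also occurred in the listed gene Gm4737, which held 73 to 98 UMIs a library beside 61 to 129 of Ahcy. Reads that lie wholly in such stretches cannot be told apart by gene. Of the 410 words of 91 bases in the last 500 bases of Ahcy, however, 0 occurred in another listed gene. Where the reads fell along the transcript was not tested, so that any part of Gm4737 in the Ahcy level is uncertain. The related genes Ahcyl1 and Ahcyl2, which resemble the hydrolase in sequence, were at 81.19 and 169.8 CPM in proximal tubule-like cells, and Ahcyl2 had its highest mean there.

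Remethylation was split between classes. Mtr was highest in type B (mean 56.23 CPM, 39.95 to 65.83) and type A (mean 54.20 CPM, 43.91 to 68.75) intercalated cells, the acid-base-transporting cells of the collecting duct. These classes overlapped each other, and no other class reached them in any library, the next being thin limb-like cells (9.678 to 19.86). The remaining classes ran from one to the next without a gap, with proximal tubule-like cells at 7.835 to 15.37 CPM and B or plasma cells at the lowest mean (2.631 CPM). Intercalated cells of both types, between 4.82% and 6.72% of the kept cells of a library, held between 27.6% and 43.4% of its Mtr UMIs.

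The order held at this fixed depth, more narrowly in type B cells of WT-HFD. The share of cells with an Mtr UMI at 1000 UMIs per cell was 2.48% to 7.59% in type A intercalated cells and 6.19%, 7.58% and 10.1% in type B cells of WT-ND, SP-ND and SP-HFD, against 0.796% to 1.66% in proximal tubule-like cells. In type B cells of WT-HFD it was 1.94% (0.785% to 3.97%), and the level there (39.95 CPM) was also the lowest of the class. That group of cells had the lowest median depth of its class (5072 UMIs) and proximal tubule markers at 13.6% of the proximal tubule level, against 1.98% to 4.76% in the other libraries, and the part of this in the Mtr level was not tested. Unthinned shares were 31.7% to 50.6% in type A and 16.7% to 45.2% in type B cells.

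**Figure D3:**
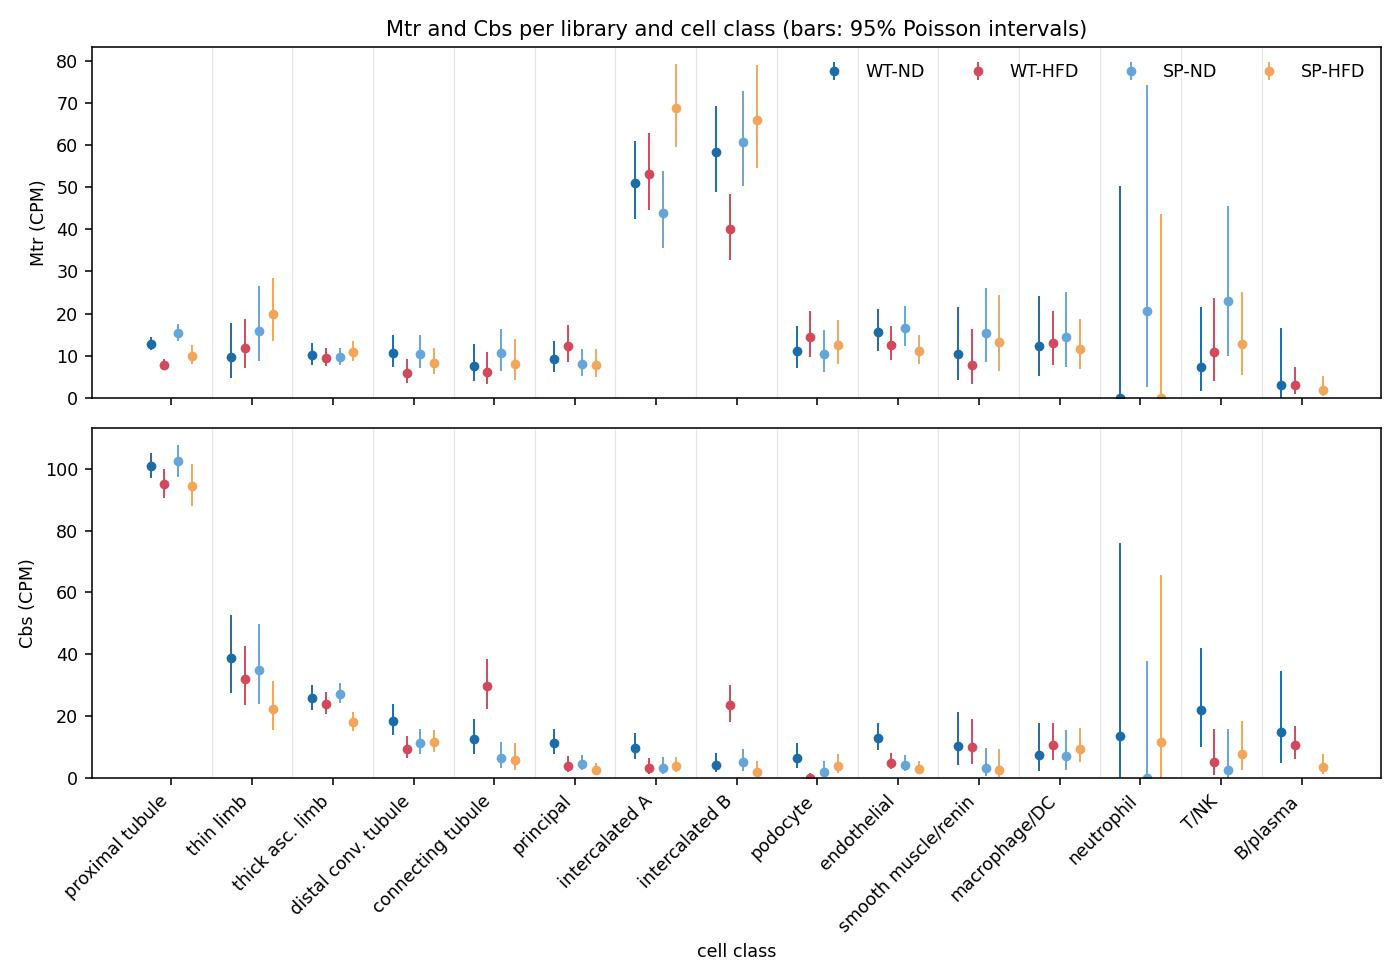
Levels (CPM, y axes) of Mtr (upper panel) and Cbs (lower panel) in each cell class (x axis), 1 point per library with its 95% Poisson interval. Mtr is highest in both intercalated classes in all 4 libraries, and Cbs is at 94.51 to 102.4 CPM in proximal tubule cells and at 38.71 CPM or less in the other classes shown.

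Genes of the folate branch that supplies Mtr with its methyl group were also high in intercalated cells. Aldh1l1, which oxidizes 10-formyltetrahydrofolate, had its highest mean in type B intercalated cells (562.3 CPM, 456.9 to 651.0), and so did Mthfd1, the trifunctional folate enzyme (185.2 CPM, 152.6 to 204.7). Slc43a2, a transporter of large neutral amino acids including methionine, was highest in type A cells (367.6 CPM, 319.2 to 429.6). Of 9 folate genes with at least 10 CPM in a class, 2 were highest in type B intercalated cells and 3 in proximal tubule-like cells, and Folr1, the folate receptor, stood at 215.5 CPM in proximal tubule-like and 222.1 CPM in thin limb-like cells.

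Bhmt, the betaine-dependent route, was counted mostly in proximal tubule-like cells, which held 66.7% to 88.3% of its UMIs, and its counts were low. It was at 3.853 CPM (91 UMIs) on ND and 1.234 (20 UMIs) on HFD in WT, and 6.96 (101 UMIs) on ND and 1.434 (12 UMIs) on HFD in SP, and at 1.321 CPM or less in each library of the other named classes. The unnamed cells held Bhmt at 0.39 to 4.24 CPM. Both HFD libraries were below both ND libraries. On the log2 scale HFD over ND came to -1.64 for WT (-2.42 to -0.93) and -2.28 for SP (-3.28 to -1.41). In all 4 libraries Bhmt stayed under the 10 CPM used to call a gene measured, so that it is not among the counts of called members below.

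The lower level of Bhmt on HFD was seen in both main proximal tubule-like clusters. In the Slc5a12-led cluster it was at 4.912 CPM on ND and 1.866 on HFD in WT, and 10.77 on ND and 2.741 on HFD in SP. In the Slc7a13-led cluster it was at 3.377, 0.7506, 4.855 and 0 CPM, and 0 against 33 UMIs in the SP libraries is at least 5.8-fold lower if 3 UMIs are taken as the floor. In the whole class SP-ND also exceeded WT-ND (log2 ratio 0.85, 0.43 to 1.28). By cluster this ratio was 1.133 (0.580 to 1.691) in the Slc5a12-led and 0.524 (-0.195 to 1.235) in the Slc7a13-led cluster, where the interval held 0. Bhmt2, a paralog that methylates homocysteine with S-methylmethionine, had its highest mean in proximal tubule-like cells too (58.35 CPM, 50.04 to 70.49), and its log2 ratio of HFD to ND was 0.21 in WT and 0.36 in SP. Only 2.35% of the 25-base words of the Bhmt transcript occurred in Bhmt2. Of the 91-base words in the last 500 bases of Bhmt, 8.54% occurred in another listed gene, Gm5096. Reads of those words cannot be told apart by gene.

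The list from choline to betaine was led by the same class. Of its 6 genes with at least 10 CPM in a class, 4 had their highest mean in proximal tubule-like cells, among them Aldh7a1, which oxidizes betaine aldehyde (176.2 CPM, 139.5 to 203.3), and the transporter gene Slc6a20b (109.2 CPM, 101.9 to 117.2). Over all lists 22 of 69 genes were highest there, and 7.79% of 12500 genes over the same floor. Chdh, choline dehydrogenase, was highest in type A intercalated cells (86.88 CPM), with 60.84 CPM in proximal tubule-like cells.

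Cbs was highest in proximal tubule-like cells among the named classes of every library. It was at 100.9 CPM on ND and 95.13 on HFD in WT, and 102.4 on ND and 94.51 on HFD in SP, with no overlap with thin limb-like cells (22.51 to 38.71) or thick ascending limb-like cells (18.3 to 27.4). The unnamed cells held Cbs at 25.64 to 60.95 CPM. In immune cells Cbs was at 4.93% to 13.5% of its proximal tubule level, where the 8 proximal tubule markers were at 2.90% to 13.8%. By library, Cbs and markers were at 13.5% and 13.8% in WT-ND and 4.93% and 6.31% in SP-ND, whereas Cbs was above the markers on HFD, with 10.8% and 6.99% in WT (37 UMIs) and 7.15% and 2.90% in SP (26 UMIs). In thick ascending limb-like cells Cbs was at 19.4% to 26.8% of the proximal tubule level and the markers at 2.14% to 6.58%, a difference between the 2 measures in each library. Proximal tubule-like cells held 54.6% to 79.3% of the Cbs UMIs of a library. High values of Cbs in WT-HFD connecting tubule-like cells (29.68 CPM, 6.005 to 12.75 in the other libraries) and type B intercalated cells (23.59 CPM, 2.231 to 5.195) came with marker levels of 18.3% and 13.6%, the highest of these classes, and their part was not tested.

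Downstream of Cbs, 6 of 9 genes of transsulfuration and cysteine use were highest in proximal tubule-like cells, beside 22 of 69 genes over all lists and 7.79% of 12500 genes with at least 10 CPM in a class, among them Gclm, the modifier subunit of glutamate-cysteine ligase (296.2 CPM, 227.8 to 372.3). Its catalytic partner Gclc was highest in connecting tubule-like cells (213.4 CPM), and Cdo1, the dioxygenase that oxidizes cysteine, in principal cell-like cells (500.4 CPM, 422.1 to 548.3).

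The polyamine and salvage genes were broadly distributed. Amd1 was highest in T or NK cells (mean 37.70 CPM, 29.58 to 44.81) and vascular smooth muscle or renin cells (mean 37.14), and low in proximal tubule-like cells, at 8.822 to 17.37 CPM, with every neighbouring pair of classes overlapping. Amd2, a near-identical copy, held 98.5% of the 91-base words in the last 500 bases of the Amd1 transcript and was counted at 37 to 47 UMIs a library beside 899 to 1150 of Amd1, so that reads of the 2 genes cannot be told apart over most of this stretch and their split is uncertain. Mtap was highest in thin limb-like cells (mean 42.77 CPM, 38.71 to 49.88) and vascular smooth muscle or renin cells (mean 36.99), which were above the other named classes in every library. The unnamed cells, with 8.48% to 17.1% of the Mtap UMIs of a library, held Mtap at 45.16, 39.37, 50.35 and 68.81 CPM, a mean above that of thin limb-like cells. In proximal tubule-like cells it was at 14.81 to 23.09 CPM. Odc1, which makes the putrescine that accepts the propylamine group from decarboxylated SAM, was highest in proximal tubule-like cells.

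Over the 58 combinations of class and library, log2(CPM + 1) of the members correlated most between Mat2b and Mtr (r = 0.78) and between Mat2a and Mat2b (r = 0.70), while Mat2a and Cbs had an r of -0.04. Among 10316 genes, those most like Mat2a were Adrm1, Ube2q2 and Abcf1 (r = 0.892, 0.891 and 0.887), and those most like Cbs were Sult1c2, Ggt1 and Ugt8a (0.845, 0.837 and 0.810). Mtr was most like Hsd17b7, Ctsf and Dmxl1 (0.870, 0.832 and 0.823), Mat2b like Zfp148, Appbp2 and Trim56 (0.852, 0.851 and 0.847), Amd1 like Wdr33, Dnajb4 and Sugt1 (0.808, 0.801 and 0.799), and Mtap like Cdh6, Fgf2 and Epha7 (0.80, 0.739 and 0.739). The sparse members had lower values: Gnmt with Hadh, mt-Nd4l and Ank3 (0.778, 0.773 and 0.770), Bhmt with Ccdc6, Idh1 and Aldh1a1 (0.709, 0.698 and 0.688), and Ahcy with Slc18a1, Ly6g2 and Gldc (0.672, 0.668 and 0.620). Classes of 1 library share its depth and free RNA, and these values are descriptions.

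In proximal tubule-like cells, 2334, 1262, 1031 and 669 cells in the 4 libraries, the members with at least 10 CPM in 1 of the libraries were compared between diets and genotypes. Mtr was lower on HFD in both genotypes. It was at 12.83 CPM on ND and 7.835 on HFD in WT, and 15.37 on ND and 10.04 on HFD in SP, and HFD over ND on the log2 scale came to -0.71 for WT (-1.02 to -0.41) and -0.61 for SP (-0.99 to -0.25). Each HFD library was below its ND library, and the genotypes overlapped. In WT, Mtr was the 1 of 6 measured members at least 1.5-fold lower and 0 were higher, where 3.69% of 6827 genes were lower and 5.41% higher. Mtr reached 10 CPM only in WT-ND, the library where it was higher. The WT-HFD cells leave out the PT-HFD candidate (976 cells), which held Mtr at 12.86 CPM, so that this call depends on leaving it out. The median log2 ratio of the 6 members was -0.18, beside 0.01 over all genes.

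In SP, 3 of 7 measured members were at least 1.5-fold lower on HFD and 0 higher, where 6.61% of 7036 genes were lower and 7.15% higher. They were Mtr, Amd1 (17.37 CPM in SP-ND and 9.319 in SP-HFD, log2 ratio -0.90, -1.28 to -0.53) and Gnmt (10.41 and 6.213 CPM, log2 ratio -0.74, -1.23 to -0.28). Amd1 and Gnmt reached 10 CPM only in SP-ND, the library where they were higher, and Gnmt was not measured in WT. The count of 3 and the median given below thus rest in part on members that passed through SP-ND alone. Mtap, at 23.09 and 15.65 CPM, was just inside 1.5-fold, with a log2 ratio of -0.56 (-0.86 to -0.27). The median of the 7 members was -0.56, beside -0.01 over all genes. The share of mitochondrial UMIs differed in this pair, 36.2% in SP-ND and 32.0% in SP-HFD, and without mitochondrial UMIs in the total each ratio moved by a further -0.09.

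Mat2a and Cbs stayed within 1.5-fold between diets. Mat2a had a log2 ratio of 0.32 (0.26 to 0.39) in WT and 0.12 (0.03 to 0.21) in SP, in the direction opposite to Mtr and Bhmt. Cbs had -0.08 (-0.18 to 0.01) in WT and -0.12 (-0.24 to 0.01) in SP. Mat2b was at 0.22 (0.10 to 0.34) and 0.02 (-0.15 to 0.18), and Ahcy at 0.12 (-0.36 to 0.60) and 0.28 (-0.37 to 0.91). Without integration of the libraries, 41.4% of all genes were at least 1.5-fold higher on HFD in WT and 43.1% in SP. Only 189 cells of WT-HFD and 143 of SP-HFD were then called proximal tubule-like. A cluster led by Ubd held 152 and 66 of them, and one led by Cyp7b1 10 and 64. Most ND cells of the class, 2171 in WT-ND and 930 in SP-ND, lay in another cluster. A cluster of 923 WT-HFD and 511 SP-HFD cells, with proximal tubule markers above the other cells, was left unnamed. The setting thus compares unlike mixes of cells between diets. There the Mtr ratio in WT was -0.002, those of Amd1 (0.75) and Mtap (0.55) in WT were above 0, and that of Mtap in SP was 0.55.

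**Figure D4:**
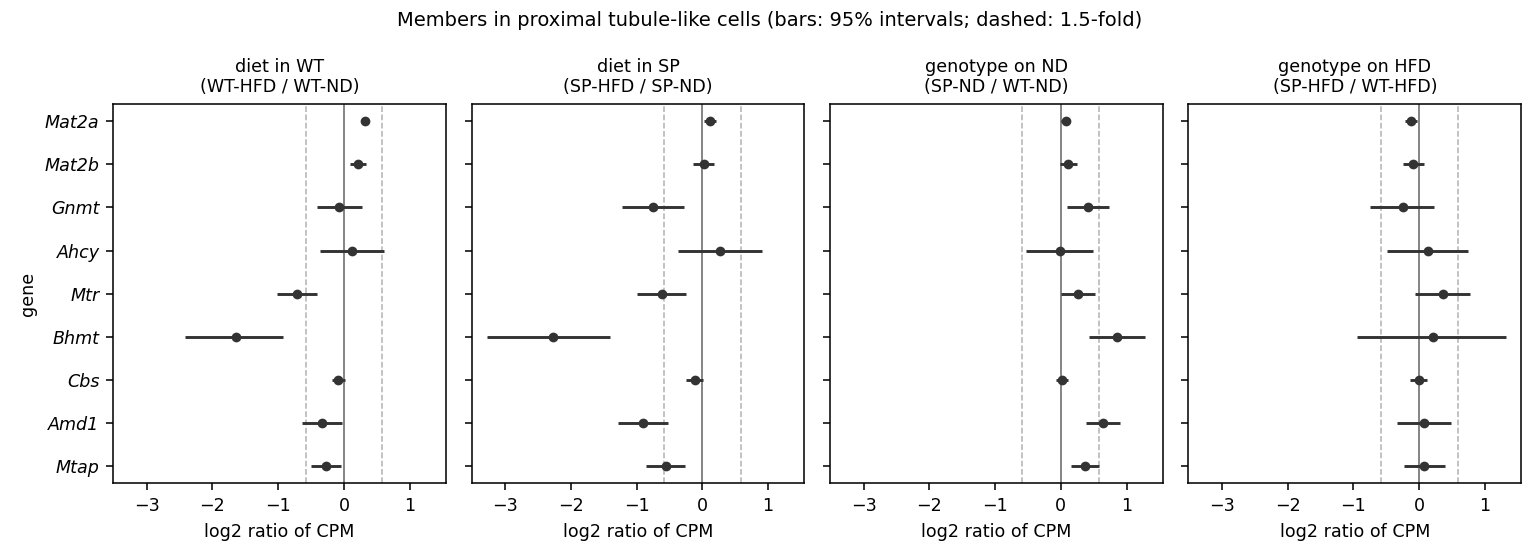
Log2 ratio of CPM (x axes) of each member (y axis) in proximal tubule-like cells for the 4 comparisons, with 95% intervals that cover counting error only; dashed lines mark 1.5-fold. Bhmt and Mtr lie left of 0 in both diet comparisons. Mat2a and Cbs lie inside the dashed lines in all 4, and the Mat2a intervals lie right of 0 in both diet comparisons.

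Between genotypes fewer differences were seen. On ND, 1 of 7 measured members was at least 1.5-fold higher in SP and 0 lower, where 2.62% of 6827 genes were higher and 1.77% lower. That member was Amd1, with a log2 ratio of 0.64 (0.39 to 0.90), and Gnmt (0.42) and Mtap (0.37) were nearer to 0. On HFD, 0 of 5 measured members passed 1.5-fold in either direction, where 1.11% of 6855 genes were higher and 0.963% lower. Mat2a then stood at 195.7 CPM in SP against 213.5 in WT (log2 ratio -0.13, -0.21 to -0.04). The WT-HFD value leaves out the PT-HFD candidate, 976 cells there and 5 in SP-HFD, which held Mat2a at 146.6 CPM in WT-HFD. The direction of the Mat2a ratio thus depends on where these cells are placed. Without integration the ratio was 0.371, but there the candidate was also left out and the class held other cells. Of its 189 WT-HFD cells 152 were in a cluster led by Ubd, and of its 143 SP-HFD cells 64 in one led by Cyp7b1. The part of this in the ratio was not tested. The comparison of genotypes on HFD shares WT-HFD with that of diet in WT, and the comparison on ND shares WT-ND with it; those of genotype likewise share SP-HFD and SP-ND with that of diet in SP.

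Within the proximal tubule the members followed the clusters as well as the diets. Mat2a was higher in the Slc7a13-led cluster (194.2, 243.9, 199.2 and 218.7 CPM in the 4 libraries) than in the Slc5a12-led cluster (146.0, 186.3, 153.9 and 163.7 CPM) of each library. Cbs followed the same order, at 110.9 to 122.6 CPM in the Slc7a13-led cluster and 76.24 to 104.5 CPM in the Slc5a12-led cluster. Slc5a12 marks the early and Slc7a13 the late part of the proximal tubule. In the Slc5a12-led cluster Cbs was lower in both HFD libraries (78.38 and 76.24 CPM) than in both ND libraries (94.65 and 104.5 CPM), and in the Slc7a13-led cluster it was not. Gnmt in SP differed mainly in the Slc5a12-led cluster, at 11.97 CPM in SP-ND and 4.236 in SP-HFD, with 10.45 and 8.368 CPM in the Slc7a13-led cluster. A further cluster of 53 cells in SP-HFD, led by Cyp7b1, held Mat2a at 544.9 CPM (445.7 to 659.7), and no other library had enough of these cells to compare.

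A smaller cluster led by Ubd, with C3, Ccl2 and Cp, genes induced in inflamed tubules, among its top genes, was present in all 4 libraries (81 to 210 cells). Compared with the Slc5a12-led cluster of the same library, Amd1 was at least 1.5-fold higher in all 4 libraries (16.89, 18.59, 27.40 and 19.06 CPM, with an interval in SP-HFD, from 11 UMIs, that reached below equality), as were 16.2% of 6997 genes measured in all of them. In WT-HFD and SP-HFD, Amd1 reached 10 CPM only in the Ubd-led cluster, where it was higher (8.212 and 9.219 CPM in the Slc5a12-led cluster). Of the 6 members measured in every library, 0 were lower in all 4, beside 2.17% of genes. Mtap was at 41.10, 25.47, 48.97 and 19.06 CPM, past 1.5-fold in 3 libraries, and Cbs was below the Slc5a12-led cluster in each, at 39.97, 55.08, 57.14 and 60.64 CPM, past 1.5-fold in WT-ND and SP-ND. Mat2b was higher in each library (71.04 to 98.45 CPM). On the log2 scale the SP-HFD intervals of Cbs (-0.879 to 0.177) and Mat2b (-0.151 to 0.853) held 0. Mat2a, at 141.1 to 197.6 CPM, lay within 1.5-fold of the Slc5a12-led cluster in every library.

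**Figure D5:**
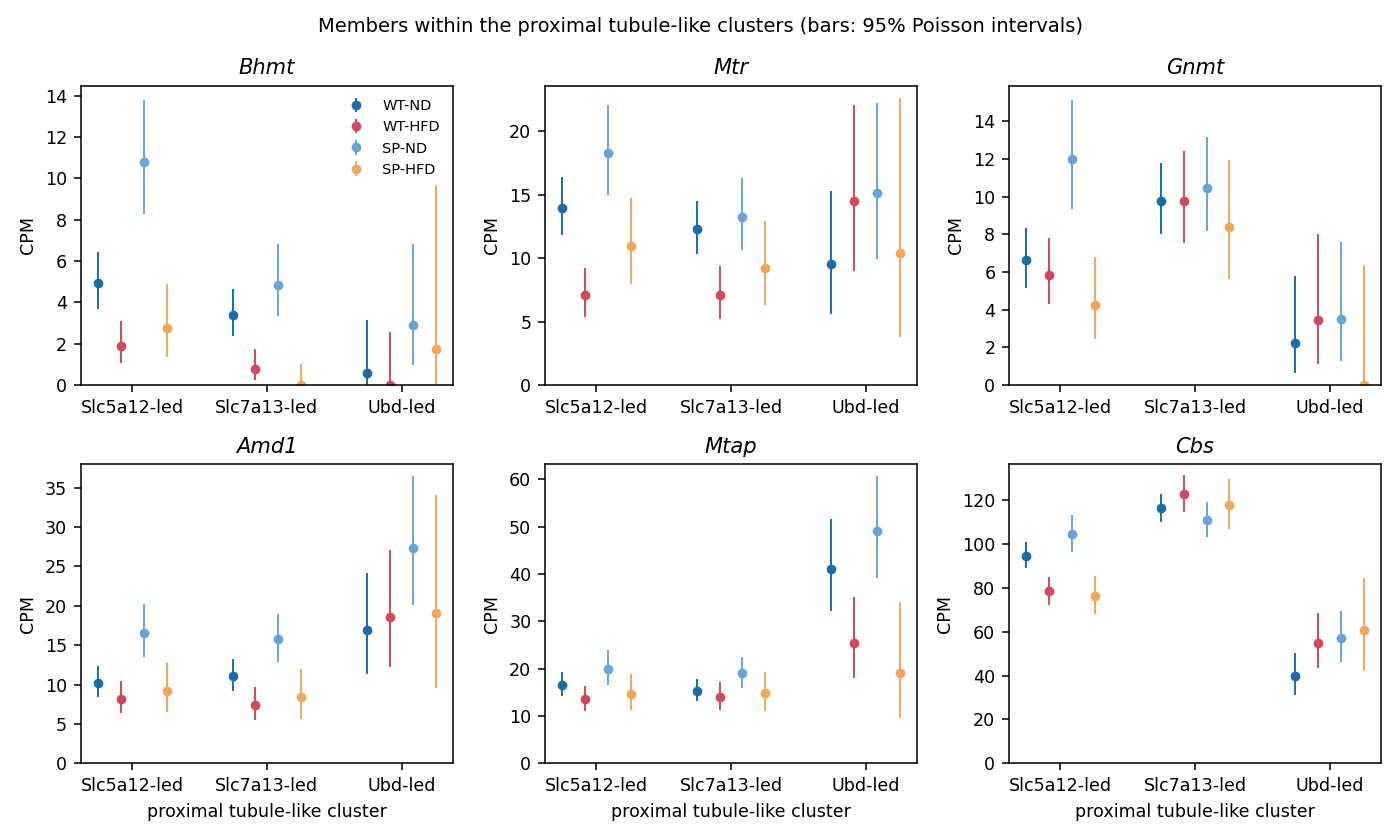
Levels (CPM, y axes) of 6 members in 3 proximal tubule-like clusters (x axes), 1 point per library with its 95% Poisson interval. Bhmt and Mtr are lower on HFD in the Slc5a12-led and Slc7a13-led clusters, and in the Ubd-led cluster Cbs is lower and Amd1 and Mtap are higher than in the other clusters of most libraries.

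Among the other genes of the pathway, 54 of 74 were measured in proximal tubule-like cells. On HFD, 5 were at least 1.5-fold higher and 1 lower in WT, and 7 higher and 1 lower in SP, beside 5.41% higher and 3.69% lower of all genes in WT and 7.15% and 6.61% in SP. Cdo1, Suox and Odc1 were higher in both genotypes. Cdo1 was at 33.66 CPM on ND and 70.70 on HFD in WT, and 25.02 on ND and 101.4 on HFD in SP. Suox, the sulfite oxidase that ends cysteine breakdown, was at 18.84, 45.16, 20.54 and 62.25 CPM in the same order. Odc1 was at 518.6, 1029, 224.5 and 1030 CPM. For each of these 3 genes both HFD libraries were above both ND libraries.

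The lists gave 9 measured genes of transsulfuration and cysteine use a median log2 ratio of 0.32 in WT and 0.45 in SP, with 2 and 3 genes higher and 0 lower. The 8 measured folate genes had medians of 0.25 and 0.35 with 1 gene higher in each genotype, and the 8 measured protein, DNA and RNA methyltransferases -0.01 and -0.17 with 0 called. Over all genes the medians were 0.01 in WT and -0.01 in SP. Of the small-molecule methyltransferases, Inmt and Tpmt were highest in proximal tubule-like cells (264.8 and 144.2 CPM), and of the protein methyltransferases Pcmt1 and Setd7 in podocyte-like cells (124.0 and 113.1 CPM). Among polyamine genes Oaz1 was highest in podocyte-like cells (951.0 CPM) and Sat1 in macrophages or dendritic cells (641.6 CPM). Of the transporters, Slc38a2 was highest in endothelial cells (242.2 CPM) and Slc3a2 in podocyte-like cells (240.6 CPM).

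The PT-HFD candidate was picked for its score, the mean log2 ratio of the PT-HFD markers to the other cells, which topped that of every cluster whose proximal tubule markers were above the other cells. That score was -0.07, so that these markers were not above the other cells in it either. It was led by Hsd11b1 and Ccl28, its proximal tubule markers were at 47.4% of the level of proximal tubule-like cells, and by the marker rule alone it would have no name. Lypd2 and Fst, also among its top genes, were top genes of the thin limb cluster as well. In WT-HFD, Mat2a was at 146.6 CPM in the candidate and 213.5 in proximal tubule-like cells (log2 ratio -0.54, -0.64 to -0.45), and Cbs at 63.51 and 95.13 CPM (-0.58, -0.72 to -0.44). Mtr was at 12.86 and 7.835 CPM, the 1 of 6 measured members past 1.5-fold, on the higher side (0.71, 0.34 to 1.09), where 19.4% of 7715 genes were higher and 12.7% lower. Mtr reached 10 CPM only in the candidate, where it was higher. Amd1 (12.08 and 8.822 CPM), Mat2b (57.85 and 63.05 CPM) and Mtap (15.74 and 14.81 CPM) lay within 1.5-fold. Bhmt, with 3 and 20 UMIs, was at 0.3325 and 1.234 CPM. The candidate is a cluster of 1 library, so that diet, genotype and library cannot be told apart. Without integration the directions of Mtr, Amd1 and Gnmt reversed. There the candidate grew to 2495 cells of WT-HFD. The proximal tubule-like cells it was set against fell from 1262 to 189, of which 152 were in a cluster led by Ubd. The part of each change was not tested.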

How the data were processed

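RNA of single kidney cells was counted in 4 libraries, 1 per group. The authors deposited raw UMI counts per gene and barcode; the processing notes name Cell Ranger 2.1.1 with mm10, whereas the file header names version 6.1.2. Barcodes with 200 to 5000 genes and under 50% mitochondrial UMIs were kept, and doublets were removed at 0.8% per 1000 cells with simulated doublets. Cells were integrated and clustered with Seurat 5.3.0 in R 4.3.3 (2000 variable genes, 50 components, resolution 0.5). Clusters were named from marker lists, with thresholds set after the clusters were seen, and classes with fewer than 50 cells in a library were left out there. UMIs were pooled by class and library and given as CPM with exact Poisson intervals, and ratios with exact conditional binomial intervals, checked on simulated counts (scipy 1.17.1). The simulated counts were Poisson draws, so that they do not check the intervals for spread between cells or mice. Shares have Clopper-Pearson intervals. All intervals are at 95%. A gene counted as measured had at least 10 CPM in 1 of the libraries compared, and as called a ratio of at least 1.5-fold. Named pathway genes had at least 100 CPM in a class, up to 3 per list, or were called alike in both diet comparisons; Bhmt2 and Chdh lie outside this rule and were chosen after their values were seen. A gene that the rule names is not reported here. The members and lists were chosen with earlier results of these data known. Alternatives changed integration, resolution, depth, mitochondrial limit, doublets, denominator, cell weight, free RNA and the low-value filter.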

Additional observations from a re-analysis of the deposited data

How the results depend on the processing

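No paired analysis was possible because each group had 1 library. Gnmt, Ahcy, Bhmt and Cbs, 4 members, had their highest mean in proximal tubule-like cells under every alternative run, and leaving out each library in turn gave 4 to 4. Without integration, 2 of 6 measured members were called higher on HFD in WT (41.4% of all genes), 1 of 7 higher and 1 lower in SP (43.1% and 6.46%), and 2 of 6 lower in the PT-HFD candidate (33.9%). In that setting most HFD cells called proximal tubule-like were in clusters led by Ubd or Cyp7b1, whereas most ND cells were not. Ratios to or between these HFD cells thus rest on other cells than in the main setting. Among ratios whose interval left out 0, 10 changed sign in all. Those that did so there were, on the log2 scale, Amd1 (0.752) and Mtap (0.551) for diet in WT, Mtap (0.549) for diet in SP, Mat2a (0.371) for genotype on HFD, and Gnmt (0.110), Mtr (-0.099) and Amd1 (-0.491) for the candidate. With mitochondrial UMIs left out of the total, 5 of 8 members were called lower on HFD in SP (9.86% of all genes), 2 of 8 higher in SP on ND (4.60%), and 2 of 7 lower in the candidate (12.5%). Stricter doublet removal (1.6%) and subtraction of 10% free RNA each gave 2 of 6 lower in the candidate (13.1% and 14.7% of all genes). Under 30% mitochondrial UMIs, the candidate ratio of Amd1 was -0.151. With each cell weighted equally, the diet ratio of Mat2a in WT type B intercalated cells was -0.070 and its genotype ratio on HFD in proximal tubule-like cells 0.062. The cause was not tested for any of these. A further 35 sign changes were of ratios whose interval held 0, and 4 of them left that interval, such as Mtr for genotype on HFD in proximal tubule-like cells (-0.254 without integration). The Mat2a diet ratio in principal cell-like cells stayed between 1.456 and 1.877 in WT and between 1.281 and 1.641 in SP. With 1 library per group, diet, genotype and library cannot be told apart, and Bhmt, Ahcy and Gnmt rest on few UMIs.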
